A study of Mus musculus with 24 samples.

Results

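Transcripts of 8 mast cell genes were followed, library by library, through bone marrow stem and progenitor cells of control mice and of mice deleted for the transcription factor gene Tal1. The 8 genes were Mcpt4, Cma1, Tpsb2, Cpa3, Gzmb, Ms4a2, Cyp11a1 and Il6, and all 8 were found, by Ensembl identifier, among the 17149 genes of the table. They were chosen by earlier results of these data, in which most of them had higher values in Tal1-deleted than in control cells. Every difference of these 8 genes between the genotypes is therefore given as a description, and its calls at the threshold support nothing. Other genes were tested between the genotypes. Their lists were also chosen with earlier results known, so those p-values are not independent support. The 24 libraries fell into 8 groups of 3. Control libraries (Ctrl) came from animals labelled wild type, Tal1 F/F with the Rag2GFP reporter and no Cre. Deleted libraries (KO) came from VaviCre Tal1F/F Rag2GFP animals, so that floxed Tal1 alleles and the Rag2 reporter were common to all groups. Vav-iCre drives recombination in blood cells from the Vav promoter. LSK cells (lineage-negative, Sca-1-positive, Kit-positive) were sorted as CD135-negative, called HSC, or CD135-positive, called LMPP, and each of these as GFP-negative or GFP-positive, GFP marking cells in which Rag2 has been switched on. No age or sex was used here. Whether each replicate is another animal is not stated, so the tests measure the spread between these libraries, which may be technical, and the 4 populations of 1 genotype and replicate share a number in the labels.

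Mast cells arise from bone marrow progenitors and store neutral proteases in granules bound to the proteoglycan serglycin. The stored enzymes are chymases such as those of Mcpt4 and Cma1, tryptases such as that of Tpsb2, and the carboxypeptidase of Cpa3. Granules are released when antigen crosslinks IgE on the high-affinity IgE receptor, which is built from an IgE-binding alpha chain (Fcer1a), a signal-amplifying beta chain (Ms4a2) and a pair of gamma chains (Fcer1g). Gzmb encodes granzyme B, a serine protease best known from cytotoxic lymphocytes and also made by some mast cells. Cyp11a1 encodes the mitochondrial enzyme that makes pregnenolone from cholesterol, and Il6 a cytokine that activated mast cells release. TAL1 is a basic helix-loop-helix protein that binds E-box motifs with E-protein partners, often beside GATA factors, in stem cells, red cell and megakaryocyte precursors and mast cells.

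Values are the authors' normalised counts, which are fractional and carry no read depth. They summed to between 6906083 and 11969093 per library. Of the 24 libraries, 22 had 13583 to 15957 genes above a value of 1, and 2 had fewer: Ctrl HSC GFP-positive replicate 2 (11982) and KO LMPP GFP-positive replicate 3 (11684). Tal1 itself was lower in every KO library than in every Ctrl library of the same population, with 253 to 518 against 1523 to 2109 in HSC GFP-negative cells. How much of the gene the deletion removes is not known from the labels. Flt3, which encodes CD135, was at 3623 or more in every LMPP library and at 3256 or less in every HSC library, and Kit was between 2327 and 8066 throughout. Within a library the lowest values recur across genes (0.126 to 0.127 for 6 members in KO LMPP GFP-positive replicate 1), so differences among values under 1 are not read. These are bulk samples, in which more cells of a type cannot be told apart from more RNA per cell.

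The sequences below are the 250 bases before the RefSeq start site (GRCm38.p6) of 5 members, read 5′ to 3′ on the gene's strand. They are shown because 3 of the genes lie in a single protease cluster on chromosome 14 but differ in where they were detected, and because Gzmb, Cpa3 and Ms4a2 lie on 3 chromosomes and had similar profiles. Capitals mark GATA forms (GATA preceded by A or T and followed by A or G, on either strand) and E-boxes (CANNTG). All 5 genes are on the minus strand, at chr14:56062311-56062560 (Mcpt4), chr14:55944676-55944925 (Cma1), chr14:56262335-56262584 (Gzmb), chr3:20242182-20242431 (Cpa3) and chr19:11623720-11623969 (Ms4a2).
Mcpt4: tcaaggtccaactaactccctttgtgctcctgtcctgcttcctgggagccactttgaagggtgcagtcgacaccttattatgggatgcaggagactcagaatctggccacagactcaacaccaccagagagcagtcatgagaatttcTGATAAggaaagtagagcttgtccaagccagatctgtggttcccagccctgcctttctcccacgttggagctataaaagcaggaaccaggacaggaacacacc
Cma1: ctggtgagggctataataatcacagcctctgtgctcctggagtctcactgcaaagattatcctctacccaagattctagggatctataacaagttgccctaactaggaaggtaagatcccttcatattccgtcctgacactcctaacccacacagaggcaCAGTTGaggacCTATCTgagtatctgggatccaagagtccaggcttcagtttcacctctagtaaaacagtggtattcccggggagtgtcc
Gzmb: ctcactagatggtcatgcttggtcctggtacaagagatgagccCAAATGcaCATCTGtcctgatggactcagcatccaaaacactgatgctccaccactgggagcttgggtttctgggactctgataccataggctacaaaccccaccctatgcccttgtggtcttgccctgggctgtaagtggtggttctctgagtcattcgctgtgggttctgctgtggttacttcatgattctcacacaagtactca
Cpa3: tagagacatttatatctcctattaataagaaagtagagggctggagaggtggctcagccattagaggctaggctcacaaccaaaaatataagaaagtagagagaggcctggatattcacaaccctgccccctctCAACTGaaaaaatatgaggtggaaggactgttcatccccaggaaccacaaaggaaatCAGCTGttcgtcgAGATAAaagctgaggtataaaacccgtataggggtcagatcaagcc
Ms4a2: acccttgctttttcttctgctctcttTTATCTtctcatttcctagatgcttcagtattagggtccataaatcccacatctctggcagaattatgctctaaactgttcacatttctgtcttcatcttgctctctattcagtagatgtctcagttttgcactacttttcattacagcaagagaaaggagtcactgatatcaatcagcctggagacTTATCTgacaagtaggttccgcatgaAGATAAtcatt

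A GATA form was present in the windows of Mcpt4, Cma1, Cpa3 and Ms4a2 and absent from that of Gzmb. The form nearest the start site was 103 bases before it in Mcpt4, 79 in Cma1, 46 in Cpa3 and 11 in Ms4a2, which held 3 forms in all. Cpa3 had the E-boxes CAACTG and CAGCTG, 116 and 59 bases before the start, and Cma1 had CAGTTG, 90 bases before it. Gzmb held the E-boxes CAAATG and CATCTG, 207 and 199 bases before the start, and Mcpt4 and Ms4a2 held none. Of 32851 RefSeq promoter windows of this length, 26.5% held a GATA form, 66.2% an E-box and 18.7% both, so these letters are common. RefSeq promoters matched 7 of the 8 members, and Tpsb2 is named only. The window of Il6, not printed, held a GATA form 55 bases and an E-box 51 bases before the start. A Cyp11a1 window, not printed, held a GATA form 231 bases before its start site. The window of another Cyp11a1 start site held E-boxes.

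Mcpt4, Cma1 and Tpsb2 were detected in KO libraries and were near 0 in all 12 Ctrl libraries, where the highest value of any of the 3 was 3.83. Mcpt4 (ENSMUSG00000061068, chr14:56059629-56062313, mm10, minus strand), a chymase gene of connective-tissue mast cells, was 816, 687 and 43.2 in replicates 1, 2 and 3 of KO HSC GFP-negative cells. In KO LMPP GFP-negative cells Mcpt4 was 94.2, 516 and 17.8. It fell away in the GFP-positive gates, with 6.42, 0.708 and 6.02 in KO HSC and 0.126, 0 and 0.485 in KO LMPP. The 2 GFP-negative KO groups overlapped each other and lay above every other group, and KO HSC GFP-positive came next.

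Cma1 (ENSMUSG00000022225, chr14:55941451-55944675, minus strand), the alpha-chymase gene, was 1516, 1020 and 75.3 in KO HSC GFP-negative cells. It was 64.2, 497 and 0.245 in KO LMPP GFP-negative cells and 8.94, 78 and 32.1 in KO HSC GFP-positive cells. These 3 groups overlapped, and the lowest KO HSC GFP-positive library was above the highest Ctrl library of any population, 2.99. Of the 3 proteases Cma1 was the one still present in each KO HSC GFP-positive library.

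Tpsb2 (ENSMUSG00000033825, chr17:25366305-25369098, plus strand), a tryptase gene, was 1276, 1120 and 20.1 in KO HSC GFP-negative cells. It was 89.2, 282 and 0.244 in KO LMPP GFP-negative cells, overlapping with the former. KO HSC GFP-positive libraries had 2.64, 0.708 and 0.00114, within the range of Ctrl HSC GFP-negative libraries (0 to 3.83). In both GFP-negative KO groups the replicates stood in the same order for Tpsb2 as for Mcpt4.

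Cyp11a1 (ENSMUSG00000032323, chr9:58006411-58027023, plus strand) followed the proteases in order, with a low level elsewhere. It was 911, 846 and 70.3 in KO HSC GFP-negative cells, 109, 267 and 11.5 in KO LMPP GFP-negative cells and 34.1, 98 and 0.00114 in KO HSC GFP-positive cells. Ctrl HSC GFP-negative libraries reached 14.9, and Ctrl LMPP libraries of both gates lay between 2.46 and 6.89. The KO HSC GFP-positive group overlapped with every Ctrl group.

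Il6 (ENSMUSG00000025746, chr5:30013114-30019981, plus strand) was present at a low level, with 30, 41.9 and 11.7 in KO HSC GFP-negative cells. KO HSC GFP-positive libraries had 2.59, 1.52 and 8.02, all below the former. In Ctrl, HSC GFP-negative replicate 1 had 7.36, and no LMPP library of either genotype exceeded 1.45.

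**Figure D1:**
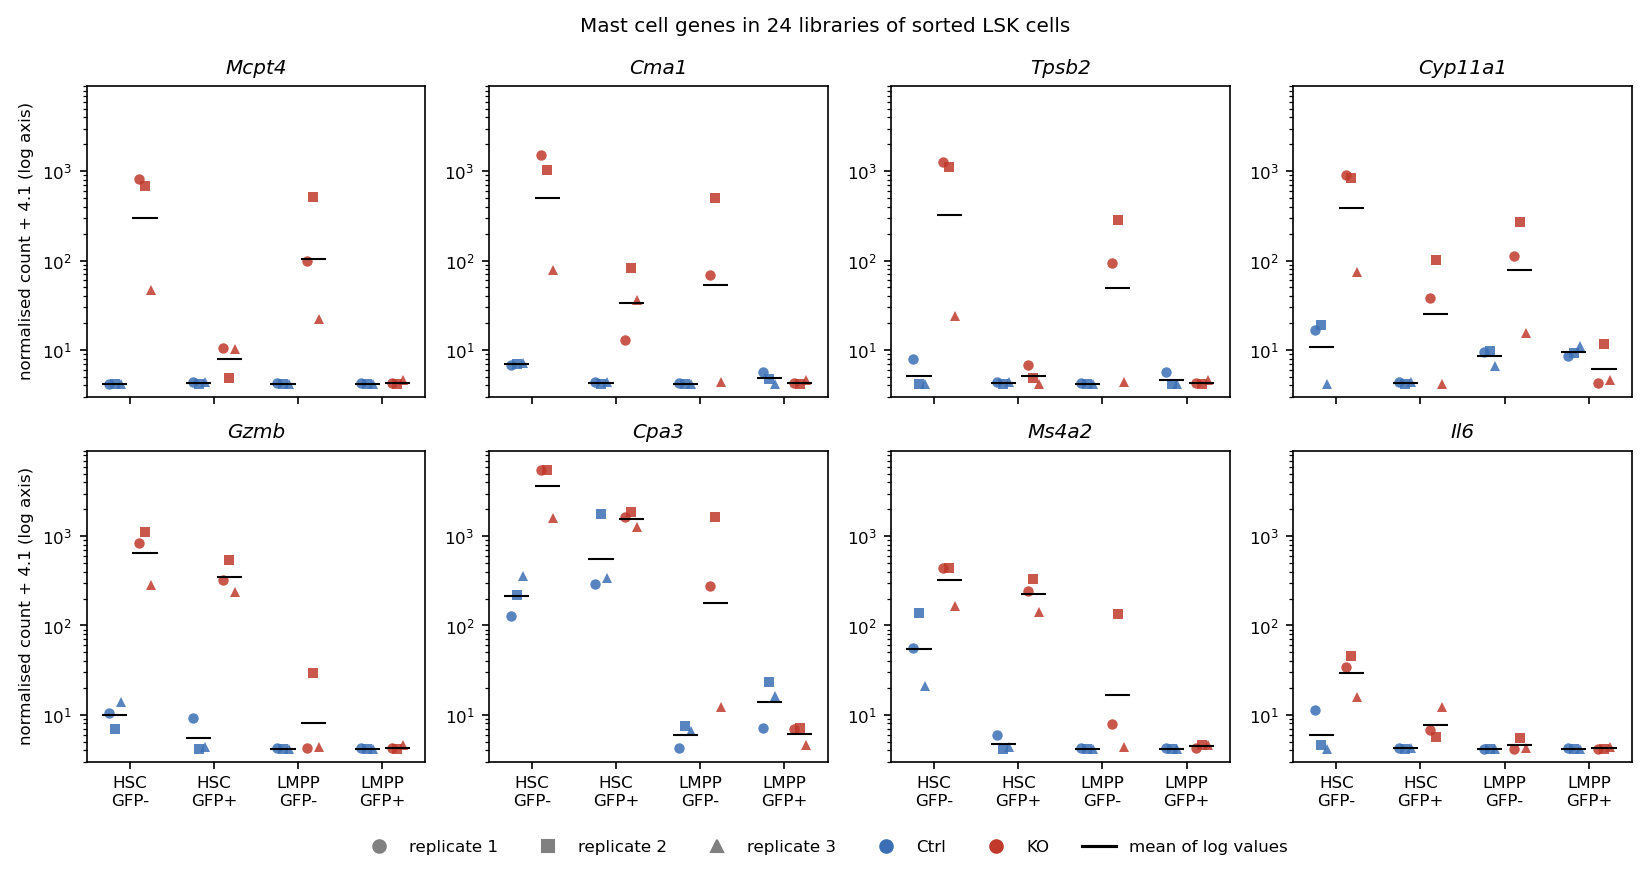
Normalised counts of the 8 genes plus 4.1, on a log axis, in each of the 24 libraries, with Ctrl in blue, KO in red, a symbol for each replicate and a bar at the mean of the 3 log values. Mcpt4, Cma1, Tpsb2 and Cyp11a1 (top row) are high in KO HSC GFP-negative and intermediate in KO LMPP GFP-negative libraries, whereas Gzmb, Cpa3 and Ms4a2 (bottom row) are high in both KO HSC gates.

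Gzmb, Cpa3 and Ms4a2 were high in both gates of KO HSC. Gzmb (ENSMUSG00000015437, chr14:56258838-56262260, minus strand) was 839, 1098 and 282 in KO HSC GFP-negative cells and 317, 542 and 230 in KO HSC GFP-positive cells, and the ranges overlapped. In KO LMPP GFP-negative cells it was 0.106, 25.2 and 0.245, and in KO LMPP GFP-positive cells at most 0.491. Ctrl HSC libraries had 6.31, 2.83 and 9.98 in the GFP-negative gate and 5.19, 0.0321 and 0.246 in the GFP-positive gate. Every KO HSC library, of either gate, was above all 18 other libraries.

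Ms4a2 (ENSMUSG00000024680, chr19:11615523-11623719, minus strand), the receptor's beta chain gene, was 438, 435 and 163 in KO HSC GFP-negative cells and 242, 330 and 136 in KO HSC GFP-positive cells. Ctrl HSC GFP-negative cells also carried it, at 52.1, 135 and 17, with the highest of these just under the lowest KO HSC library. Ctrl HSC GFP-positive libraries had 1.91, 0.0318 and 0.244. In KO LMPP GFP-negative cells Ms4a2 was 3.89, 130 and 0.242, so that replicate 2 alone was at the level of Ctrl HSC GFP-negative cells, and KO LMPP GFP-positive libraries were under 0.5.

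Cpa3 (ENSMUSG00000001865, chr3:20215620-20242181, minus strand), the mast cell carboxypeptidase gene, was the only member well above 0 in Ctrl HSC of both gates. Ctrl HSC had 123, 217 and 351 in the GFP-negative and 285, 1758 and 337 in the GFP-positive gate, where the high library, replicate 2, was also 1 of the 2 with few genes detected. KO HSC had 5451, 5465 and 1587 in the GFP-negative and 1617, 1874 and 1251 in the GFP-positive gate. KO LMPP GFP-negative libraries spread from 275 and 1624 down to 8.23. In LMPP GFP-positive cells Ctrl was the higher, with 3.04, 19.2 and 12.3 against 2.75, 3.02 and 0.5 in KO, the nearest values being almost equal.

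Replicates differed in the same way across the genes. Replicate 3 was the lowest of the KO HSC GFP-negative libraries for all 8 members. In KO LMPP GFP-negative cells replicate 2 was the highest for all 8. Replicate 3 of KO HSC GFP-negative cells was also lowest for Kit (5573 against 7347 and 8066) and Gata2 (2142 against 4478 and 5148). Where leaving it out changed a call between KO populations, the value without it is given below.

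Gzmb was thus not the only member with a higher level in KO than in Ctrl HSC GFP-positive cells. Ms4a2, also under 2 in Ctrl, was 136 or more in every KO library, and Cma1 was 8.94 to 78 against at most 0.26. Cpa3 was high in both genotypes and overlapped between them, and Mcpt4 and Tpsb2 were at 6.42 or less in KO. These levels were known when the members were chosen and are a description. The log2 difference between Gzmb and the mean of Mcpt4, Cma1 and Tpsb2 depends on the genes' lengths and is read only between libraries. It was -0.47, 0.25 and 2.67 in KO HSC GFP-negative cells and 5.04, 5.46 and 4.35 in KO HSC GFP-positive cells. In KO LMPP GFP-negative cells it was -4.35, -3.84 and -0.78. The last group lay below KO HSC GFP-negative cells without overlap, with means of -2.99 and 0.82. Tpsb2 met the filter only through KO HSC GFP-negative cells, so the difference of -3.81 carries no test. In KO LMPP GFP-negative replicate 3, Gzmb, Cma1 and Tpsb2 were at 0.245 or less, so its -0.78 came from Mcpt4 alone, at 17.8. KO LMPP GFP-negative replicates 1 and 2 carried the 3 proteases at 64.2 or more with Gzmb at 25.2 or less. All 3 KO HSC GFP-positive libraries carried Gzmb at 230 or more with Mcpt4 at 6.42 or less.

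**Figure D2:**
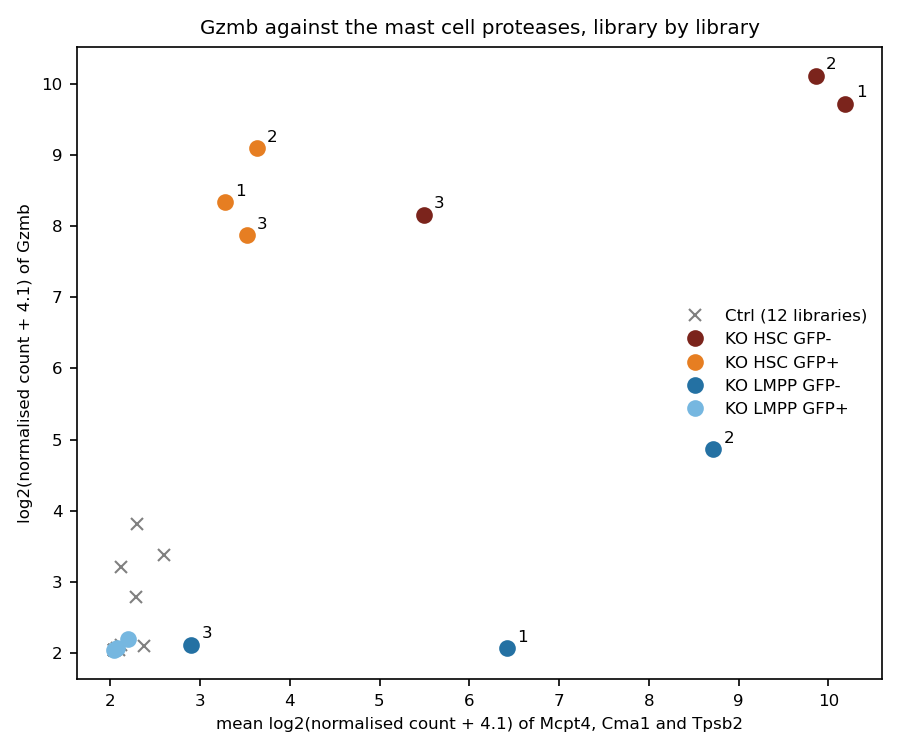
Log2(normalised count + 4.1) of Gzmb against the mean of the same quantity for Mcpt4, Cma1 and Tpsb2, 1 point per library, with the replicate number beside the KO points. KO HSC GFP-positive libraries lie high on the Gzmb axis and low on the protease axis, and KO LMPP GFP-negative replicates 1 and 2 lie the other way.

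Over the 12 KO libraries, log2 values of Gzmb had a Pearson correlation of 0.97 with Ms4a2, 0.89 with Cpa3, 0.81 with Il6, 0.70 with Cma1, 0.59 with Cyp11a1, 0.44 with Tpsb2 and 0.41 with Mcpt4. Its correlations with the 3 proteases thus ran from 0.41 to 0.70. Mcpt4 and Tpsb2 correlated at 0.97. These are descriptions: the 12 libraries come from 4 populations that share 3 numbers in the labels, and they include libraries at 0 for several of the genes.

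Differences between KO populations were tested with limma on log2(value + 4.1), which understates changes of low genes, with adjustment over all 16215 genes that passed a filter of 1 ppm of a library's total in 3 libraries. These contrasts were not used to choose the genes, but they share the KO libraries with those that were, and levels in KO HSC GFP-positive cells were known when the members were listed, so the p-values are not independent support. All 8 members passed the filter. Tpsb2 and Il6 reached the level in fewer than 3 libraries outside KO HSC GFP-negative cells (2 and 1), so they passed only through the group where they are high. Their differences from that group are given as values, with no test.

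Between the GFP gates of KO HSC, Mcpt4 was the 1 gene that fell among the 6 that met the filter elsewhere, and none rose, where 0.222% of all genes tested fell and 0.154% rose. It fell by 5.23 on the log2 scale (SE 0.89, adjusted p = 0.00359) and was lower in all 3 GFP-positive libraries. The differences of Tpsb2 (-6.0, SE 1.14) and Il6 (-1.92, SE 0.48) carry no test. Among the 6, Mcpt4 was lower without overlap and none was higher, where 9.04% and 6.44% of all genes were. Tpsb2 and Il6 were also lower without overlap. They are not set against these shares, since they met the filter only through KO HSC GFP-negative cells. Cma1 (-3.88, adjusted p = 0.193) and Cyp11a1 (-3.94, adjusted p = 0.147) did not pass. For Gzmb the difference was -0.90 with a 95% interval from -2.38 to 0.58, for Cpa3 -1.21 (-3.33 to 0.91) and for Ms4a2 -0.50 (-2.34 to 1.35), which leaves falls of more than 4-fold possible for each. The median over the 8 genes, with Tpsb2 and Il6 included, was -2.90, against -0.05 over all genes. The call for Mcpt4 was lost without KO HSC GFP-negative replicate 1 (adjusted p = 0.057) or replicate 2 (0.0511), and in a fit of these 6 libraries only (0.105). Without KO HSC GFP-negative replicate 3, Cma1 (-5.20, adjusted p = 0.0227) and Cyp11a1 (-5.13, adjusted p = 0.0214) fell as well.

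Between the GFP gates of KO LMPP, 2 of the 8 genes fell and none rose, where 0.567% of all genes fell and 0.586% rose. Mcpt4 fell by 4.60 (SE 0.89, adjusted p = 0.00908) and Cpa3 by 4.87 (SE 1.03, adjusted p = 0.0163), again in all 3 libraries. Cyp11a1 was also lower in all 3 (-3.69, adjusted p = 0.0961), and these 3 of the 8 were the members lower without overlap (11% of all genes), with none higher (8.05%). Cma1 and Tpsb2 overlapped between the gates, with KO LMPP GFP-negative replicate 3 at 0.245 or less for both. The difference of Gzmb (-0.92) rested on KO LMPP GFP-negative replicate 2, at 25.2, and was 0.009 without it. Il6 (-0.13) was at 1.45 or less in both gates. The calls rested on few libraries. Without KO LMPP GFP-negative replicate 2, neither gene passed (adjusted p = 0.0802 for Mcpt4 and 0.153 for Cpa3), nor did either in a fit of the 6 libraries only (0.348 and 0.484). Cpa3 was lost without KO LMPP GFP-negative replicate 1 (0.0886) or without KO LMPP GFP-positive replicate 3 (0.0819), the latter being a library with few genes detected. Without KO LMPP GFP-negative replicate 3, 5 of the 8 fell.

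Between LMPP and HSC of KO GFP-negative cells, 3 of the 6 genes that met the filter outside KO HSC GFP-negative cells fell and none rose, where 0.463% of all genes fell and 0.413% rose. Gzmb fell by 6.31 (SE 0.72, adjusted p = 1.82e-05), Ms4a2 fell by 4.26 (SE 0.90, adjusted p = 0.0146), and Cpa3 fell by 4.35 (SE 1.03, adjusted p = 0.0367). Tpsb2 (-2.74, SE 1.14) and Il6 (-2.66, SE 0.48) carry no test. Gzmb and Ms4a2 were lower in every LMPP library, where 11.1% of all genes were and 11.2% were higher. Il6 was lower in every LMPP library too, but met the filter only through KO HSC GFP-negative cells. Cpa3 overlapped, since replicate 2 of LMPP, at 1624, was above replicate 3 of HSC, at 1587. The differences of Mcpt4 (-1.53, 95% interval -3.36 to 0.31), Cyp11a1 (-2.31, adjusted p = 0.561) and Cma1 (-3.23, adjusted p = 0.252) did not pass. Cma1 fell without KO HSC GFP-negative replicate 3 (-4.55, adjusted p = 0.0487) or without KO LMPP GFP-negative replicate 2 (-4.86, adjusted p = 0.0219), and without the former the difference of Tpsb2 was -4.62.

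Gzmb passed under each of the 15 alternative settings tried for this contrast, with adjusted p between 9.69e-08 and 0.00212. Cpa3 was lost in 6 of the 15 and Ms4a2 in 4. Those of both genes included leaving out KO HSC GFP-negative replicate 1 (adjusted p = 0.175 for Cpa3 and 0.0845 for Ms4a2) or 2 (0.271 and 0.111), and KO LMPP GFP-negative replicate 1 (0.0903 and 0.132) or 3 (0.232 and 0.129). Without the last library the difference of Cpa3 was -2.43.

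Between LMPP and HSC of KO GFP-positive cells, Gzmb, Cpa3 and Ms4a2 fell and none rose, where 0.308% of all genes fell and 0.302% rose. Cpa3 fell by 8.01 (SE 1.03, adjusted p = 0.000132), Gzmb fell by 6.33 (SE 0.72, adjusted p = 2.62e-05) and Ms4a2 fell by 5.67 (SE 0.90, adjusted p = 0.00118), each in all 3 libraries. Cma1 was lower in every LMPP library without passing (-2.98, adjusted p = 0.313), as were Mcpt4 and Il6 at low levels, so that 6 of the 8 did not overlap (7.56% of all genes) and none was higher (6.95%). Tpsb2 and Cyp11a1 overlapped. Cpa3 passed in all 15 settings, and Gzmb and Ms4a2 in 14, the exception being a fit of the 6 libraries only (adjusted p = 0.133 and 0.164).

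**Figure D3:**
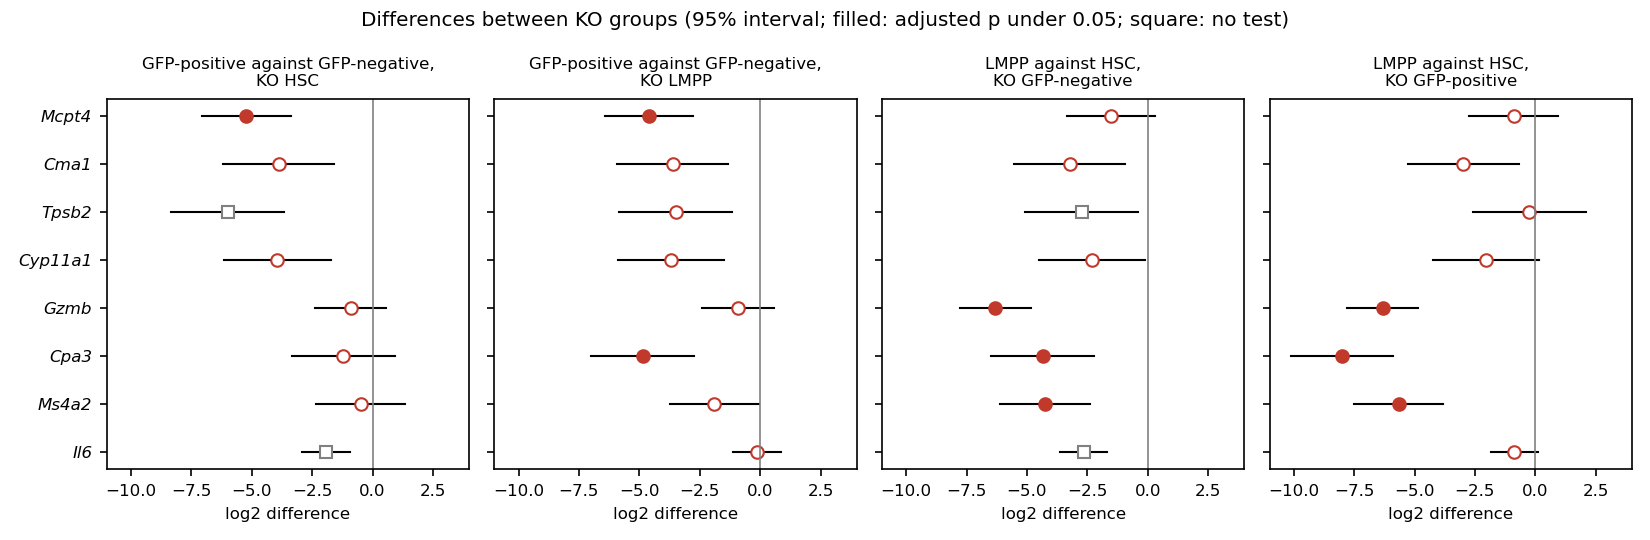
Log2 differences of the 8 genes between KO populations, with 95% intervals, filled where the adjusted p was under 0.05 and drawn as open squares for Tpsb2 and Il6 where they carry no test. The intervals are not adjusted over all genes. Some therefore lie wholly below 0 where the adjusted p did not pass, such as those of Cma1 and Cyp11a1 between the gates of HSC.

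Side by side, and as a description only, the differences between KO and Ctrl had the following sizes. In HSC GFP-negative cells all 8 genes were higher in every KO than in every Ctrl library, where 6.66% of all genes were. Mcpt4, Cma1, Gzmb and Cyp11a1 were past the threshold, where 0.136% of all genes were. Tpsb2 and Il6 met the filter only through these KO cells, so their differences carry no test. The genes were chosen by these contrasts, so nothing is read from their counts against those shares, here or in the populations that follow. None was lower without overlap there (6.03% of all genes), in HSC GFP-positive (4.95%) or in LMPP GFP-negative cells (5.43%). The log2 differences ran from 2.29 for Il6 and 2.54 for Ms4a2 to 6.18 for Mcpt4, with a median of 5.57 against 0.02 over all genes. Leaving out KO replicate 3 kept the calls of Mcpt4, Cma1, Gzmb and Cyp11a1. Leaving out any other of these 6 libraries kept only Mcpt4 and Gzmb of them. In HSC GFP-positive cells 5 did not overlap (9.36% of all genes) and 2 passed, Gzmb at 5.97 and Ms4a2 at 5.57 (0.315% of all genes rose and 0.117% fell). The other differences there were 2.98 for Cma1, 2.56 for Cyp11a1, 1.49 for Cpa3, 0.90 for Mcpt4, 0.87 for Il6 and 0.25 for Tpsb2. In LMPP GFP-negative cells 6 did not overlap (5.38% of all genes) and Mcpt4 passed at 4.65 (0.0247% of all genes), and was lost when any of the 6 libraries but KO replicate 3 was left out, while Cpa3 was at 4.91, Cma1 at 3.68, Tpsb2 at 3.56, Cyp11a1 at 3.21, Ms4a2 at 2.01, Gzmb at 0.97 and Il6 at 0.16. In LMPP GFP-positive cells none was higher without overlap (4.30% of all genes), Cpa3 was lower (-1.20, where 5.25% of all genes were lower without overlap), and none passed with limma (0.0308% of all genes rose and 0.0123% fell), 0 of the 8 having an unadjusted p under 0.05.

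The other chains of the IgE receptor took different sides. Fcer1a, the IgE-binding chain, was 126, 186 and 16.3 in KO HSC GFP-negative cells, 0.0961, 42.6 and 0.218 in KO LMPP GFP-negative cells and under 0.1 in all 3 KO HSC GFP-positive libraries. Its difference between the GFP gates of KO HSC was -4.27 (SE 0.79), where that of Ms4a2 was -0.50. Fcer1a met the filter in 2 libraries outside KO HSC GFP-negative cells, so its difference carries no test, and the 2 differences were not tested against each other. In Ctrl cells Fcer1a reached 17.4, in HSC GFP-negative replicate 1. Fcer1g, the gamma chain that other receptors use as well, was present in every group, at 703 to 1232 in KO HSC GFP-negative and 877 to 1087 in KO HSC GFP-positive cells, and its difference between these gates was 0.02. Transcripts for all 3 chains were thus at measurable levels together in KO HSC GFP-negative cells, in KO LMPP GFP-negative replicate 2, where Fcer1a was 42.6, Ms4a2 130 and Fcer1g 384, and in Ctrl HSC GFP-negative replicates 1 and 2, where Fcer1a was 17.4 and 6.46. Of 19 listed genes of the receptor and its signalling cascade, 1 rose in KO against Ctrl HSC GFP-positive cells and none fell. The gene was Syk, the kinase recruited to the gamma chain, with 1589, 1768 and 1368 against 730, 521 and 646 (1.32, SE 0.26, adjusted p = 0.0198). Ctrl libraries of the other populations had 1017 to 1718, so Ctrl HSC GFP-positive was a low group, and its replicate 2 had few genes detected. Apart from Fcer1a, whose difference between the gates of KO HSC carries no test, none of the 19 passed limma's test in the 4 contrasts between KO populations.

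Of 29 other mast cell genes listed, 25 were in the table and 22 were tested; Tpsab1, Mcpt9, Enpp3 and Cpa4 were not analysed here. In HSC GFP-negative cells Mcpt2 and Mcpt1, chymase genes of mucosal mast cells, had higher values in every KO than in every Ctrl library. Mcpt2 was 15.7, 60.9 and 41.9 in KO and at most 0.0735 in Ctrl (3.24, SE 0.44). Mcpt1 was 8.86, 11.2 and 31.3 against at most 0.0538 (2.22, SE 0.39). Both met the filter in these 3 KO libraries and nowhere else, so the differences carry no test, and none of the other 20 passed. In contrast to the 8 members, replicate 3 was not the lowest library for either gene. None of the 22 passed limma's test between KO and Ctrl in HSC GFP-positive, LMPP GFP-negative or LMPP GFP-positive cells, where 4, 3 and 2 had an unadjusted p under 0.05. The median log2 difference of the 22 was 1.08 in HSC GFP-negative cells and 0.14 in HSC GFP-positive cells, against 0.02 and 0.19 over all genes.

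Between the GFP gates of KO HSC the differences were -3.05 for Mcpt2, -2.22 for Mcpt1 and -3.73 for Tph1, whose enzyme makes serotonin. These 3 and Fcer1a passed the filter only through KO HSC GFP-negative cells and carry no test, and no other of the 22 passed. In LMPP 2 fell, Cd63, a granule membrane tetraspanin gene (-1.98, adjusted p = 0.013), and Slc18a2, which encodes the vesicular monoamine transporter (-2.80, adjusted p = 0.0417). From HSC to LMPP 2 fell in GFP-negative cells (Gata1 and Slc18a2, with Mcpt2 and Mcpt1 again not tested) and 3 in GFP-positive cells (Slc18a2, Cd63 and Alox5). Ctrl values mostly differed in the same directions, which was not tested. In GFP-negative cells Gata1 was 106 to 188 in Ctrl HSC and at most 7.9 in Ctrl LMPP. Slc18a2 was 799 to 1183 and 114 to 254. In GFP-positive cells Alox5 was 63.7 to 173 and at most 0.68, and Cd63 280 to 515 and 21.4 to 90.9. Slc18a2 overlapped there (72.1 to 419 and 57.1 to 73). Between the gates of Ctrl LMPP, Cd63 was 222 to 288 and 21.4 to 90.9, and Slc18a2 114 to 254 and 57.1 to 73. Single-library omissions were not run for these other genes.

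Transcription factors that mast cells need were present beyond the groups that carried protease transcripts. Gata2, a regulator of mast cell and stem cell genes, was 1486 to 1883 in Ctrl and 2142 to 5148 in KO HSC GFP-negative cells. It was 837 to 1509 in KO HSC GFP-positive cells, and 0.0324, 238 and 279 in Ctrl, a difference of 4.17 that did not pass (adjusted p = 0.097). Mitf, another mast cell regulator, was 218, 141 and 34.8 in KO HSC GFP-negative and 79.1, 162 and 63.7 in KO LMPP GFP-negative cells, against 32.4 to 80.5 and 29.4 to 49.9 in Ctrl. Neither gene passed in any of the 8 comparisons, and Kit did not either.

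Mcpt4, Cma1 and Gzmb belong to the chymase locus, a cluster of serine protease genes on chromosome 14 that spans 320810 bp from Cma1 to Gzmb and holds 26 annotated genes (GENCODE M21). Of its 15 protein-coding genes, 8 were in the table. The gap between Cma1 and Mcpt4 is 114953 bp and that between Mcpt4 and Gzmb 196524 bp. Ctsg, the cathepsin G gene of neutrophils and some mast cells, lies between Mcpt4 and Gzmb and followed neither throughout. Like Gzmb, it was higher in KO HSC than in KO LMPP of the same gate. Unlike Gzmb, it was higher in the GFP-positive than in the GFP-negative gate of KO HSC, and was high in Ctrl HSC. Ctsg had the following levels. It was 94 to 156 in KO HSC GFP-negative cells, 770 to 2109 in KO HSC GFP-positive cells and 0.248 to 10.2 in KO LMPP GFP-negative cells. In Ctrl HSC it was 249 to 607 and 720 to 4489 in the GFP-negative and GFP-positive gates.

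Ctsg fell in KO against Ctrl LMPP GFP-negative cells (-4.42, SE 0.82, adjusted p = 0.0253), the population in which Mcpt4 was 17.8 to 516 in KO and at most 0.128 in Ctrl. It fell from HSC to LMPP in both KO gates (-4.30, adjusted p = 0.00575, and -4.56, adjusted p = 0.00461). Mcpt8, a basophil protease gene next to Ctsg, was 15.6 to 48.6 in KO HSC GFP-negative and 35.1 to 141 in KO HSC GFP-positive cells. It was also present in Ctrl HSC libraries, up to 133, and passed in none of the 8 comparisons. Cma2 was 18.5, 17.5 and 0.432 in KO HSC GFP-negative cells and under 1 in all other libraries. In KO HSC GFP-positive cells Mcpt8, Ctsg and Gzmb, on the Gzmb side of Mcpt4, were at 35.1 or more in every library. On the Cma1 side Mcpt1, Mcpt2 and Cma2 were at 2.01 or less, and Cma1 was at 8.94 to 78.

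**Figure D4:**
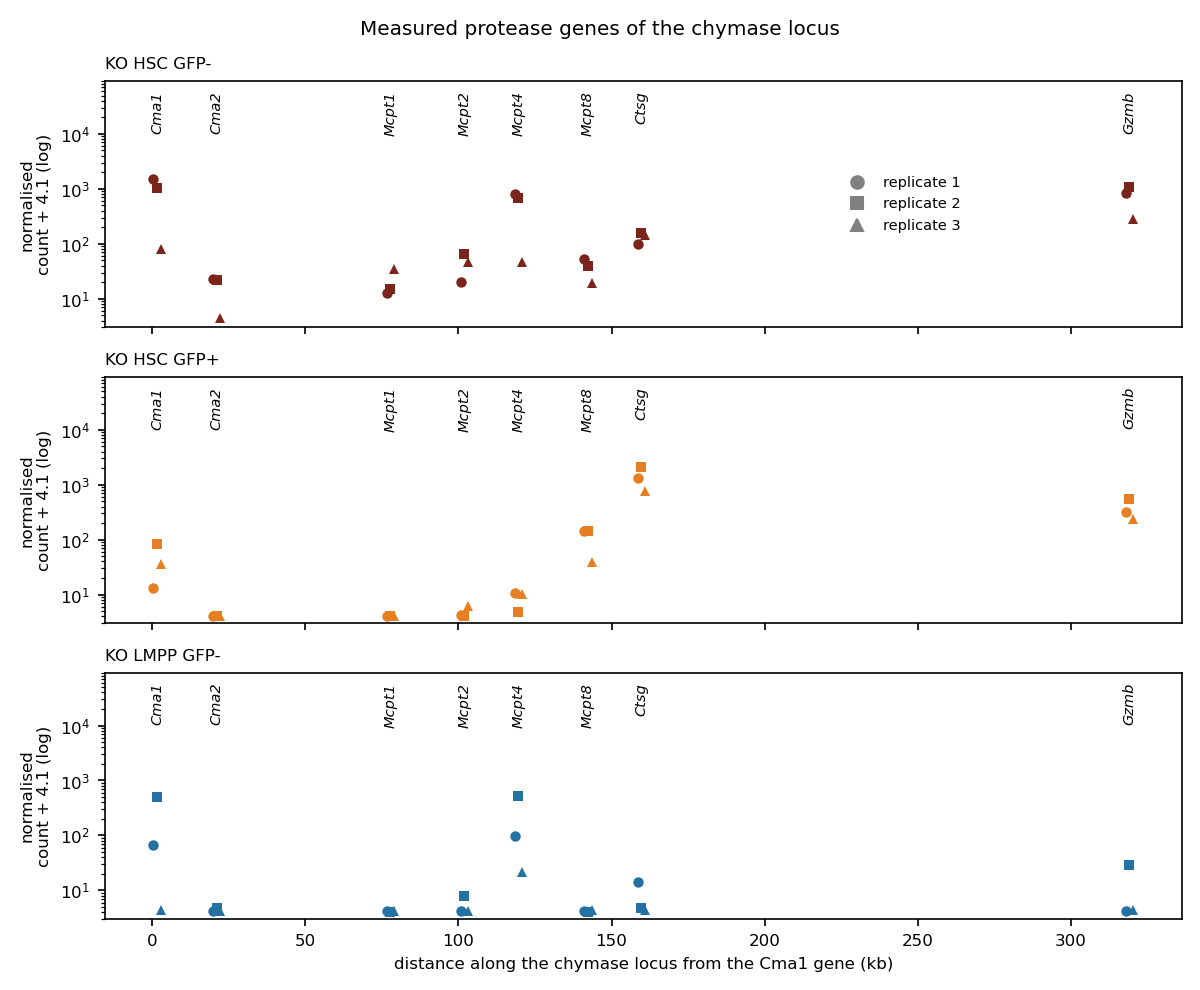
Normalised counts plus 4.1, on a log axis, of the 8 measured protein-coding genes of the chymase locus in 3 KO populations, placed by distance from the Cma1 end in kb, with a symbol for each replicate. Ctsg and Gzmb are high together in KO HSC GFP-positive cells, whereas Cma1 and Mcpt4 are the high genes of KO LMPP GFP-negative replicates 1 and 2.

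Few read-length stretches of the members occur in another gene. Of all 76-base windows of the members' transcripts, 2.42% in Mcpt4 (shared with Cma2), 1.58% in Cma1 (Gm48934), 1.19% in Ms4a2 (Ms4a4b) and 1.46% in Cyp11a1 (Gm17322) are shared, and none in Gzmb, Tpsb2, Cpa3 or Il6. Cyp11a1 overlaps the long non-coding gene Gm17322 on the same strand, and Cpa3 contains Mir7007, so reads there cannot be told apart by strand.

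Other granule genes of cytotoxic lymphocytes differed in part from Gzmb by population, with no test of the difference. Of 24 listed, 10 were in the table and tested; Gzma, Gzmc and Prf1 were among those not analysed here. None of the 10 passed limma's test between KO and Ctrl in any population, and the unadjusted p was under 0.05 for 1, 2, 0 and 3 of them in the 2 gates of HSC (negative first) and of LMPP. Nkg7, a granule membrane gene, was 854, 1143 and 1155 in KO and 616, 821 and 569 in Ctrl HSC GFP-negative cells, and fell from HSC to LMPP in KO GFP-negative cells (-2.60, SE 0.57, adjusted p = 0.0191). Cst7, a cystatin gene, fell in the same contrast (-2.24, adjusted p = 0.0329) and rose from the GFP-negative to the GFP-positive gate of KO LMPP (2.83, SE 0.52, adjusted p = 0.00579). Of the 6 natural killer cell markers, 3 were in the table, and their summed level was 854 to 1155 in KO HSC GFP-negative cells and 584 to 845 in Ctrl. Nearly all of it was Nkg7: Klrd1 was at 0.0513 or less in all 3 KO HSC GFP-negative libraries and Klrb1c at 0.0455 or less. In KO HSC GFP-positive cells Klrb1c was at 0.706 or less, Cd3e was under 1, and Klrd1 was 7.67 in replicate 1 and under 0.01 in the others.

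Markers of other blood lineages differed between the same groups. The summed level of 6 neutrophil markers was 14220 to 53190 in KO HSC GFP-positive and 5004 to 7033 in KO HSC GFP-negative cells, and 1509 to 2413 in KO LMPP GFP-negative cells, with none of the 6 under 1 in all libraries of a group. In the same populations of Ctrl the sum was higher, at 54500 to 120000, 10290 to 26740 and 4145 to 8435. Mpo, a neutrophil granule gene, rose between the gates of KO HSC by 3.13 (SE 0.49, adjusted p = 0.0015), where Mcpt4 fell. Ctrl HSC had Mpo at 8143 to 24928 in the GFP-negative and 51068 to 106766 in the GFP-positive gate, a difference not tested here. The sum of 7 erythroid markers was 2842 to 3911 in KO and 219.5 to 381 in Ctrl HSC GFP-negative cells, and 2241 to 3107 in KO LMPP GFP-negative cells. The 4 basophil markers in the table summed to 45 to 342 in KO HSC GFP-negative cells, 37.1 to 157 in KO HSC GFP-positive cells and 5.71 to 90.3 in KO LMPP GFP-negative cells, where Mcpt8 was under 1. These markers include Fcer1a, also on the mast cell list, so the sum is not separate from the mast cell genes. Fcer1a alone was 126, 186 and 16.3 in KO HSC GFP-negative cells and 42.6 in KO LMPP GFP-negative replicate 2. In Ctrl HSC GFP-negative cells the basophil sum was 38 to 95.6. The part of these cells in the levels of the 8 genes was not tested. Of 9 tested basophil and eosinophil genes none passed with limma in any of the 8 comparisons, and 7 of the 72 unadjusted p-values were under 0.05.

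The neighbours of the other members in pathway or position mostly did not move with them. Of 7 tested genes of steroid synthesis beside Cyp11a1, 1 passed, in 1 of the 8 comparisons. Fdxr, whose reductase feeds electrons to the Cyp11a1 enzyme, rose in KO against Ctrl HSC GFP-positive cells (3.76, SE 0.65, adjusted p = 0.0106), with 141, 399 and 182 against 50.8, 3.27 and 6.68. In the other populations Ctrl libraries had 39.8 to 169, and Ctrl HSC GFP-positive replicate 2, at 3.27, had few genes detected. Star and Fdx1, whose products carry cholesterol into mitochondria and electrons to the enzyme, did not pass. Of 9 tested genes of Il6 reception and inflammatory cytokines, Il6st, which encodes the shared signalling receptor, rose from HSC to LMPP in KO GFP-positive cells (1.63, SE 0.36, adjusted p = 0.0298) and none fell. Of 6 tested genes of the Ms4a cluster beside Ms4a2, Ms4a3 fell from HSC to LMPP in both KO gates (-2.89, adjusted p = 0.0218, and -4.76, adjusted p = 0.000171), as Ms4a2 did, and no other passed. Of the tryptase cluster Tpsg1, the gene that starts directly after Tpsb2, was tested alone. It was 188, 196 and 0.919 in KO HSC GFP-negative cells and did not pass between KO and Ctrl there (3.81, adjusted p = 0.196). It overlaps Cacna1h on the opposite strand.

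The genes most like the 3 proteases over all 24 libraries, by Pearson correlation of log2 values, were Tph1 (0.968), Il9r, the interleukin 9 receptor gene (0.958), Tpsg1 (0.927), Frmpd1 (0.924), Car8 (0.905), Atp8b5 (0.900), Mrgprb2, a mast cell receptor gene for basic secretagogues (0.899), Slc4a11 (0.898), Cobl (0.897) and Lhfp (0.896). Mrgprb2 was 176, 172 and 2.04 in KO HSC GFP-negative cells, 0.0978, 116 and 0.222 in KO LMPP GFP-negative cells and under 0.1 in KO HSC GFP-positive cells. Among the 5 most like Gzmb were Mir7007 (0.913), which lies inside Cpa3, Scin, an actin-severing protein gene (0.889), Slc45a3 (0.881) and Il1rl1, the receptor gene for interleukin 33 (0.867). Il1rl1 was 1584, 1558 and 146 in KO HSC GFP-negative cells and 171, 159 and 196 in KO HSC GFP-positive cells. Ctrl HSC had 29.9, 139 and 92.8 in the GFP-negative and at most 13.1 in the GFP-positive gate. With limma the difference between genotypes passed in neither gate (adjusted p = 0.926 and 0.0723). In KO LMPP GFP-negative replicate 2 Il1rl1 was 470. No gene was on both lists.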

How the data were processed

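Total RNA of sorted cells was sequenced for 76 cycles (per the labels), trimmed with Trimmomatic 0.33, counted with HTSeq 0.6.1 on mm10 and normalised with edgeR, per the submitters' processing notes. No aligner is named in these notes. The authors deposited a table of normalised counts, a signal with fractional values: only 0.594% of those above 0 were whole to within 0.001, so reads were not recovered, depth is unknown and precision rests on the 3 libraries per group. GENCODE M21 named 16978 of the 17149 identifiers, and 171 were unmatched.

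With limma 3.58.1 in R 4.3.3, log2(value + 4.1), the added constant being 0.5 ppm of the mean library total, was fitted over 8 group means in all 24 libraries (moderated with a trend, 16 residual and 9.53 prior degrees of freedom). Genes needed 1 ppm of a library's total in 3 libraries, and p-values were adjusted by Benjamini-Hochberg over 16215 genes, threshold 0.05. A simulation with known changes was used to test the fit. Those changes were placed in genes of higher mean value, in KO HSC GFP-positive cells only. It therefore does not cover genes that are near 0 in most groups. Other pseudocounts, scalings, weights, blocks, sample sets and single-library omissions were tried.

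The 8 members and all gene lists were chosen with earlier results of these data known. All 8 members were named; of other lists, up to 6 genes passing in any comparison, plus the receptor chains, Ctsg, Mcpt8, Kit, Gata2 and Mitf; and the 10 and 5 genes most correlated with the proteases and with Gzmb, predicted genes left out; 1 of the 5 is not reported here. Same-numbered replicates did not pair by the rule used (every pair's correlation above 0.1).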

Additional observations from a re-analysis of the deposited data

Results flagged for a closer look

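Cpa3, the mast cell carboxypeptidase gene, had opposite directions in different populations. In LMPP GFP-positive cells every KO library was below every Ctrl library (log2 difference -1.203, with KO at 2.75, 3.02 and 0.5 and Ctrl at 3.04, 19.2 and 12.3). Every KO library was above every Ctrl library in HSC GFP-negative cells (4.072) and in LMPP GFP-negative cells (4.911). The difference between these populations was not tested, and both LMPP GFP-positive groups were low.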

How the results depend on the processing

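In the 4 contrasts between KO populations, the 8 members were refitted under 15 settings each, 480 values in all: 434 kept their direction and side of the threshold, 26 lost and 18 gained a call, and 2 changed sign. Those 2 were Gzmb (0.009) and Il6 (0.003) between the gates of KO LMPP without KO LMPP GFP-negative replicate 2, which had been -0.92 and -0.13 and, among single-library omissions, were lowest without replicate 1 (-1.391 and -0.202). A pseudocount of 0.1 ppm gave -1.553 and -0.42. Counts of the 8 members called depended on the fit. They include Tpsb2 and Il6, which met the filter only through KO HSC GFP-negative cells. Those 2 carry no test in contrasts with that group, so the counts show only how calls moved with the setting. For KO against Ctrl HSC GFP-negative cells the count was 6, and 7 with a pseudocount of 2 ppm or array weights (adding Cpa3), 5 without the 2 libraries of low detection, 3 with a pseudocount of 0.1 ppm, 2 in a fit of the 6 libraries only and 2 to 6 with single libraries left out (6 without KO replicate 3, 3 without Ctrl replicate 1 and 2 without any other). For HSC GFP-positive cells it was 2, and 1 with array weights, 0 with the 6 libraries only and 2 in each omission. For LMPP GFP-negative cells it was 1, and 0 with a pseudocount of 2 ppm, 2 with the replicate block, 4 with array weights, 2 without the 2 libraries of low detection, 0 with the 6 libraries only and 0 to 3 in omissions (3 without KO replicate 3 and 0 without any other). For LMPP GFP-positive cells it was 0 throughout these settings. Between the gates of KO HSC it was 2, and 5 with array weights, 0 with the 6 libraries only and 0 to 5 in omissions. Between the gates of KO LMPP it was likewise 2, 5, 0 and 0 to 5. From HSC to LMPP in KO GFP-negative cells it was 4, and 1 to 6 in omissions. In GFP-positive cells it was 3, and 1 with the 6 libraries only and 3 in each omission. The causes were not tested.

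The replicate numbers were not shown to pair the libraries. With the replicate block the count became 3 between the gates of KO HSC and 3 between those of KO LMPP, by gaining Cyp11a1 in each, and every library correlated best with its own number in these 2 comparisons and in LMPP against HSC of GFP-positive cells. Over all genes, the number called ran from 26 in the main setting for the genotypes in HSC GFP-negative cells to between 2 and 174 elsewhere. The ranges were 70 and 0 to 704 in HSC GFP-positive cells, 9 and 0 to 44 in LMPP GFP-negative cells and 7 and 0 to 9 in LMPP GFP-positive cells. Between KO populations they were 61 and 19 to 242 (gates of HSC), 187 and 8 to 799 (gates of LMPP), 142 and 37 to 1059 (LMPP against HSC, GFP-negative) and 99 and 1 to 377 (GFP-positive). The highest of each came with array weights, except 704, which came without Ctrl HSC GFP-positive replicate 3. Values under 1 are near the lowest values the table holds, so log2 differences of genes near 0 in a group depend on the pseudocount: the difference of Mcpt4 between genotypes in the HSC GFP-negative gate was 6.18, and 8.42 and 4.31 with pseudocounts of 0.1 and 2 ppm.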
